A study of Arabidopsis thaliana with 18 samples.

Results

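DFR (AT5G42800) encodes dihydroflavonol 4-reductase and UF3GT (AT5G54060) encodes a flavonoid glycosyltransferase, and both act in the late part of anthocyanin synthesis. They were taken as the probe sets that the probe annotation assigns to either gene alone, which gave 2 probe sets, 1 for each gene, among 22746 probe sets without the Affymetrix control probe sets. Of 13287 genes with a probe set of their own, the pair makes 2. The pair was chosen from its log2 signals on all arrays and from its variation inside groups, so its levels are given as a description, without a test. Rosettes of Arabidopsis thaliana Col-0 were collected at an age of 20 days, after growth in continuous light at 22 °C. Plants were exposed for 1 h to sound of 250, 500, 1000, 2000 or 3000 Hz at 80 dB, in a chamber without other noise, and control plants stood there for 1 h in silence. No mutant or transgene was used. Each of the 6 groups had 3 biological replicates, giving 18 arrays, and the labels do not say how many plants were pooled for an array. The measurement is hybridisation of biotin-labelled cRNA to Affymetrix arrays, and the values are log2 signals, on which a difference of 1 is a doubling.

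Anthocyanins are red to purple vacuolar pigments made from phenylalanine through the phenylpropanoid and flavonoid pathways. Chalcone synthase, chalcone isomerase and hydroxylases make dihydroflavonols, which either become flavonols or are reduced by DFR, the first enzyme on the way to anthocyanidins and to the proanthocyanidins of the seed coat. Anthocyanidins are then glycosylated and acylated, and UF3GT, also known as UGT79B1, adds a xylose to the glucose already carried by the pigment. In Arabidopsis leaves the late genes are switched on by complexes of MYB, bHLH and WD40 proteins, and pigment is known to build up in strong light, in cold, with sugar and when nutrients are short.

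DFR varied widely among arrays of the same treatment. On control replicates 1, 2 and 3 the log2 signals of DFR were 8.56, 7.69 and 5.95. After 250 Hz they were 8.82, 8.81 and 6.48, and after 500 Hz 8.32, 7.22 and 7.74. The silent control group and the 250 Hz group thus each held both a high and a low array, 6.11-fold and 5.06-fold apart. After 1000 Hz the DFR signals were 8.21, 6.36 and 7.32, after 2000 Hz they were 6.89, 5.23 and 7.05, and after 3000 Hz 8.24, 8.63 and 7.76. The 3000 Hz arrays lay closest together, with a range of 0.87, and all 3 lay above the control mean of 7.40, whereas all 3 of the 2000 Hz arrays lay below it. Even so, the control arrays overlapped with the arrays of each of the 5 frequencies. Over all probe sets 13.4%, 22.0%, 14.1%, 16.6% and 22.7% did not overlap between control and 250, 500, 1000, 2000 and 3000 Hz, and nothing is read from DFR against these shares because it was chosen on these arrays.

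The group means of DFR were 8.21 ± 0.44 at 3000 Hz, 8.04 ± 1.35 at 250 Hz, 7.76 ± 0.55 at 500 Hz, 7.40 ± 1.33 in the controls, 7.30 ± 0.93 at 1000 Hz and 6.39 ± 1.01 at 2000 Hz (SD, n = 3). Neighbours in that order differed by 0.10 to 0.91, where the pooled SD of single arrays inside groups was 1.00. Gaps between neighbours in a sorted order are small by construction, so they do not test the order. Against the control mean, DFR differed by 0.81 at 3000 Hz, 0.64 at 250 Hz, 0.36 at 500 Hz, -0.10 at 1000 Hz and -1.01 at 2000 Hz. The differences at 250, 500 and 1000 Hz changed sign when single arrays were left out, and those at 2000 and 3000 Hz ranged from -1.74 to -0.43 and from 0.09 to 1.39. The highest and lowest group means were 3.53-fold apart, and the single control replicates 1 and 3 were 6.11-fold apart. The former are means of 3 arrays, which vary less than single arrays.

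UF3GT spanned a smaller range and had its highest value on a silent control array. Its log2 signals on control replicates 1, 2 and 3 were 7.94, 6.59 and 6.17. After 250 Hz they were 7.16, 7.50 and 6.27, and after 500 Hz 7.27, 6.57 and 6.36. Control replicate 1 stood above every other array, and in the 250 Hz group replicate 3 was the low array, as it was for DFR. After 1000 Hz UF3GT had 6.88, 6.49 and 6.46, after 2000 Hz 6.31, 6.09 and 6.71, and after 3000 Hz 7.16, 7.78 and 6.89. The 2000 Hz group held the lowest signal of both genes on the same array, its replicate 2.

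The group means of UF3GT were 7.28 ± 0.46 at 3000 Hz, 6.98 ± 0.64 at 250 Hz, 6.90 ± 0.92 in the controls, 6.73 ± 0.48 at 500 Hz, 6.61 ± 0.23 at 1000 Hz and 6.37 ± 0.31 at 2000 Hz (SD, n = 3). Neighbouring means were 0.08 to 0.30 apart, where the pooled SD of single arrays was 0.55, and these gaps likewise do not test the order. The order was that of DFR except that the control group lay above the 500 Hz group for UF3GT and below it for DFR. Differences to the control mean were 0.38 at 3000 Hz, 0.08 at 250 Hz, -0.17 at 500 Hz, -0.29 at 1000 Hz and -0.53 at 2000 Hz. Those at 250, 500 and 1000 Hz changed sign when single arrays were left out, and without control replicate 1 the difference at 2000 Hz was -0.01.

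**Figure D1:**
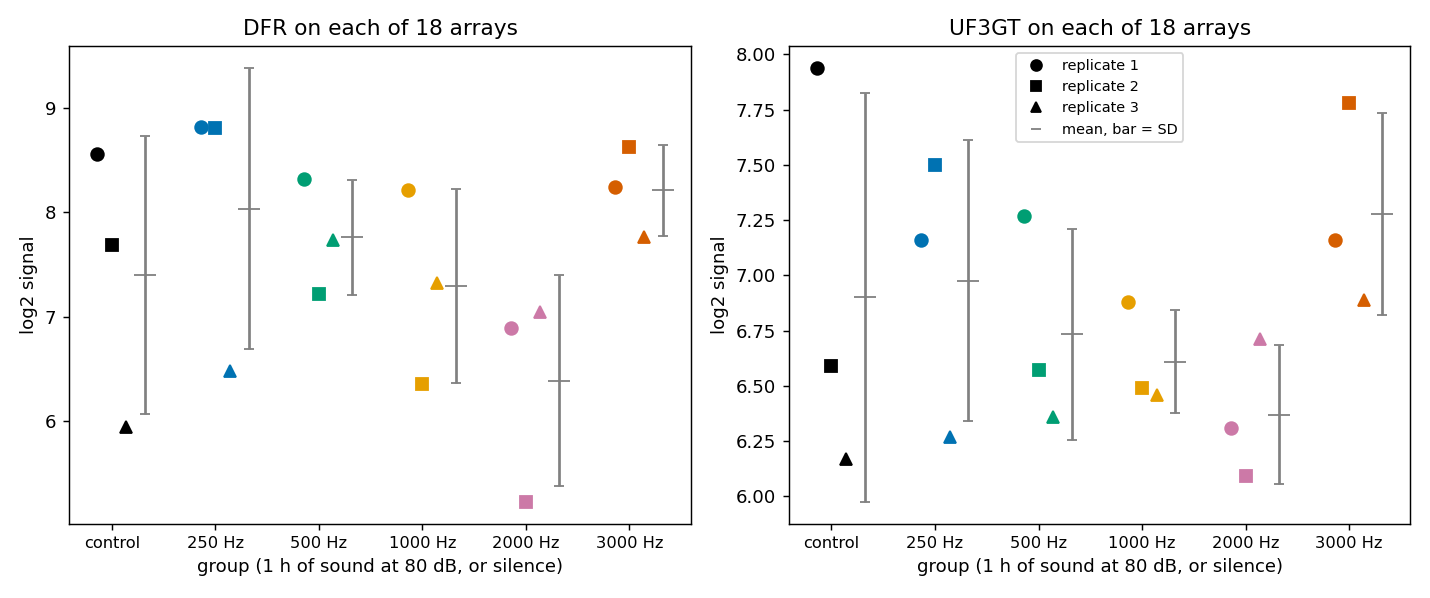
Log2 signal of DFR (left) and UF3GT (right) on each of the 18 arrays, by group, with point shapes for replicate numbers and grey bars for the group mean and SD (n = 3). The controls span 5.95 to 8.56 for DFR and 6.17 to 7.94 for UF3GT. In both panels the 3000 Hz arrays all lie above the 2000 Hz arrays, and 23.8% of all probe sets did not overlap in that pair of groups.

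Arrays of the same treatment held 64.9% of the total sum of squares of DFR and 71.4% of that of UF3GT. With 6 groups of 3 arrays, most of the sum of squares is expected inside groups where the groups do not differ, and less where they do. Sorted by the pooled SD inside groups, DFR came 41st and UF3GT 532nd of 22746 probe sets, where the median SD was 0.14. Of the 15 pairs of groups, 2 did not overlap for DFR, namely 2000 Hz with 3000 Hz and 500 Hz with 2000 Hz. Over all probe sets 23.8% did not overlap in the former pair and 23.8% in the latter. The shares for 250 Hz with 500, 1000, 2000 and 3000 Hz were 26.4%, 24.6%, 24.9% and 33.7%, and those for 500 Hz with 1000 and 3000 Hz and for 1000 Hz with 2000 Hz were 19.6%, 34.3% and 26.9%. For UF3GT the 2 pairs were 2000 Hz with 3000 Hz and 1000 Hz with 3000 Hz, where 30.7% of all probe sets did not overlap in the second. Since the genes were selected on these values and on their variation inside groups, nothing is read from these counts. The same holds for the pair's SD ranks and its shares inside groups.

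DFR and UF3GT were mostly high and low on the same arrays. The array with the highest DFR signal in its group also had the highest UF3GT signal in 5 of 6 groups, and the lowest coincided in 4 of 6. The exception for the highest was the 250 Hz group, where replicates 1 and 2 stood at 8.82 and 8.81 for DFR. Across the 18 arrays Pearson's r was 0.85 and Spearman's rho 0.90, and r was 0.83 without the 2 arrays farthest from the DFR median. It was 0.86 over the 15 sound arrays, 0.86 without control replicate 1 and 0.83 after the mean of each group had been subtracted. These values describe arrays that share groups and normalization, and no p is attached to them because the genes were chosen for this pattern. The counts of shared highest and lowest arrays were not particular to the pair. They were also 5 and 4 of 6 for UF3GT with the activator gene HYH, and 6 and 5 of 6 for DFR with AT4G14090. For DFR with HYH they were 4 and 2 of 6. Their share over all probe sets was not counted.

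Among 2768 other probe sets with a single named gene and a range of at least 1 over the arrays, UF3GT had the highest r with DFR (0.846). The late anthocyanin gene AT5MAT, described below, was outside this ranking with a range of 0.99, and its r with DFR was 0.851. The median r with DFR over the 2768 probe sets was -0.01, and 2 of them exceeded 0.8. The second was AT4G14090 at r = 0.82, a locus without a symbol in the annotation that had been placed in the list of late anthocyanin genes. Next came AT1G30700 (0.70), AT1G12570 (0.68), AT1G29250 (0.67) and AT4G10270 (0.67). At the other end were the plastid ATP synthase gene atpF (-0.64), AT4G22980 (-0.62) and AT4G11900 (-0.62).

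AT4G14090 was closer still to UF3GT, with r = 0.97 and rho = 0.95 across the 18 arrays. Its signals were 8.27, 6.30 and 6.28 in the controls, 7.57, 7.54 and 6.30 at 250 Hz and 7.62, 6.57 and 6.08 at 500 Hz. At 1000 Hz they were 7.04, 6.35 and 6.49, at 2000 Hz 6.19, 5.96 and 6.57, and at 3000 Hz 7.28, 7.91 and 6.94. On all 18 arrays UF3GT and AT4G14090 lay on the same side of their group means, and the lowest value of both was on 2000 Hz replicate 2. The r was 0.96 without the 2 arrays farthest from the UF3GT median, 0.97 over the 15 sound arrays and 0.97 after subtracting group means.

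Among the ranked probe sets, those next in likeness to UF3GT were DFR (0.85), AT3G22660 (0.77), UGT78D2 (0.75), AT5G61310 (0.74) and AT1G29250 (0.74). UGT78D2 is the flavonoid 3-O-glucosyltransferase that puts the first sugar on the pigment. AT4G14090 and AT1G29250 were the 2 genes among the 6 most like each member that both had in common. The lowest r values with UF3GT were those of AT5G02160 (-0.71), the plastid photosystem II gene psbT (-0.66) and AT3G57700 (-0.65). The median r with UF3GT was -0.05, and 134 of 2768 exceeded 0.6, against 30 for DFR.

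**Figure D2:**
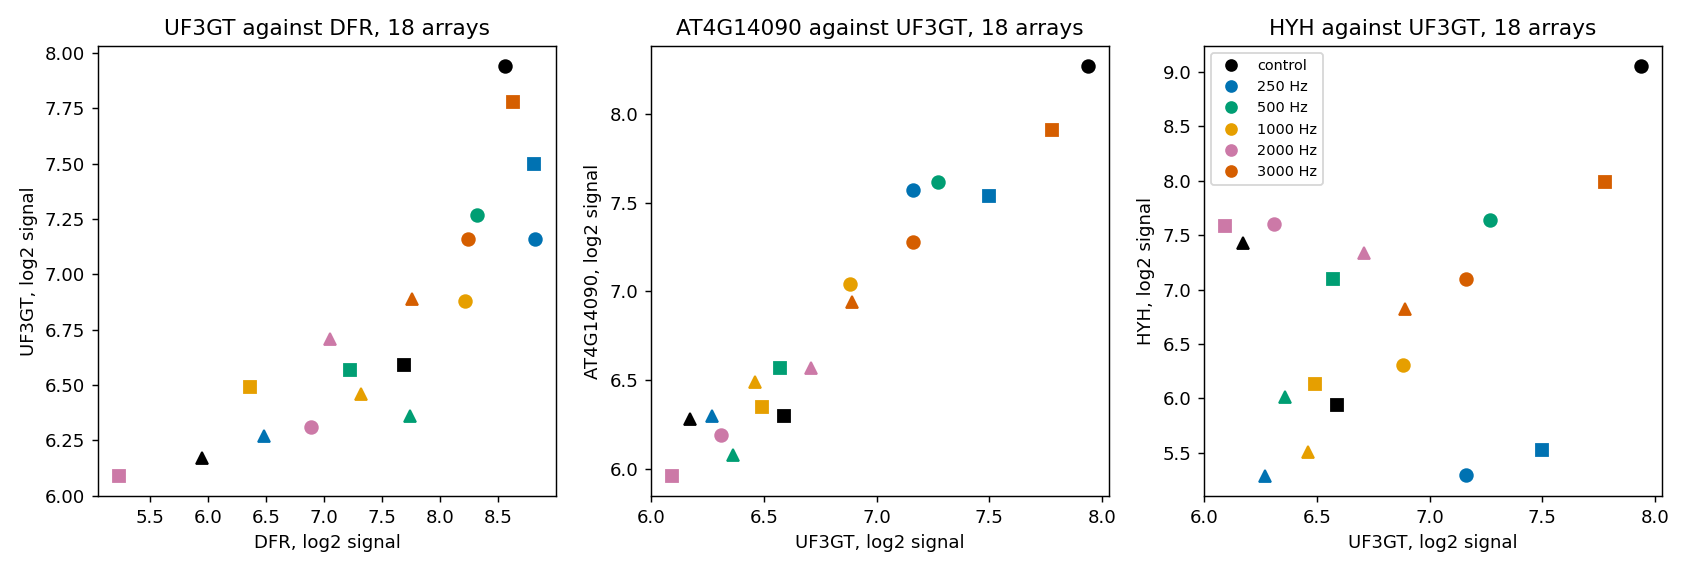
Log2 signals on the 18 arrays for UF3GT against DFR (left), AT4G14090 against UF3GT (middle) and HYH against UF3GT (right), coloured by group, with circles, squares and triangles for replicates 1, 2 and 3. The first pair gives r = 0.85 and the second r = 0.97, while HYH and UF3GT give r = 0.33, with 2000 Hz arrays high in HYH and low in UF3GT. After subtracting group means, HYH and UF3GT give r = 0.69.

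Of 9 other late anthocyanin genes in the list, 3 had a probe set of their own (UGT78D2, AT4G14090 and AT5MAT), and 2 share a probe set that could not be given to either. In limma's test over all probe sets, 0 of these 3 passed an adjusted p of 0.05 at any of the 5 frequencies, and 0 had an unadjusted p under 0.05. AT5MAT, which malonylates the sugar at the 5 position of the pigment, ranged from 4.83 to 5.82, again with its lowest value on 2000 Hz replicate 2. Its r was 0.851 with DFR and 0.853 with UF3GT, each above the 0.846 between DFR and UF3GT. With a range of 0.99 it fell just short of the minimum range used for ranking likeness, and is missing from both rankings. AT5MAT stood above control by 0.41 ± 0.21 at 250 Hz (adjusted p = 0.347 in limma) and by 0.40 ± 0.21 at 3000 Hz (adjusted p = 0.257). The latter was 0.65 without control replicate 1 (adjusted p = 0.0359) and 0.25 without control replicate 2 (adjusted p = 0.497). At 500, 1000 and 2000 Hz its differences were 0.08, 0.03 and -0.23.

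AT4G14090 differed from control by 0.43 ± 0.50 at 3000 Hz (adjusted p = 0.653 in limma), 0.19 at 250 Hz, -0.19 at 500 Hz, -0.32 at 1000 Hz and -0.71 ± 0.50 at 2000 Hz (adjusted p = 0.467). With 1 array left out the difference at 3000 Hz ranged from 0.09 to 1.09 and that at 2000 Hz from -1.05 to -0.05, the latter without control replicate 1. The differences run in the same order of groups as those of UF3GT, with which its arrays correlate. UGT78D2 reached 10.18 on control replicate 1 and lay between 7.95 and 9.43 on the other 17 arrays. Its differences to control ranged from -0.73 ± 0.38 at 500 Hz (adjusted p = 0.235) to -0.13 ± 0.38 at 3000 Hz (adjusted p = 0.880), and neither passed. The one at 500 Hz was -1.17 without control replicate 2 (adjusted p = 0.0367) and -0.15 without control replicate 1 (adjusted p = 0.821). The median of the 3 late genes was 0.19, -0.19, -0.32, -0.50 and 0.40 at 250, 500, 1000, 2000 and 3000 Hz, where the median of all probe sets lay between -0.02 and 0.01.

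**Figure D3:**
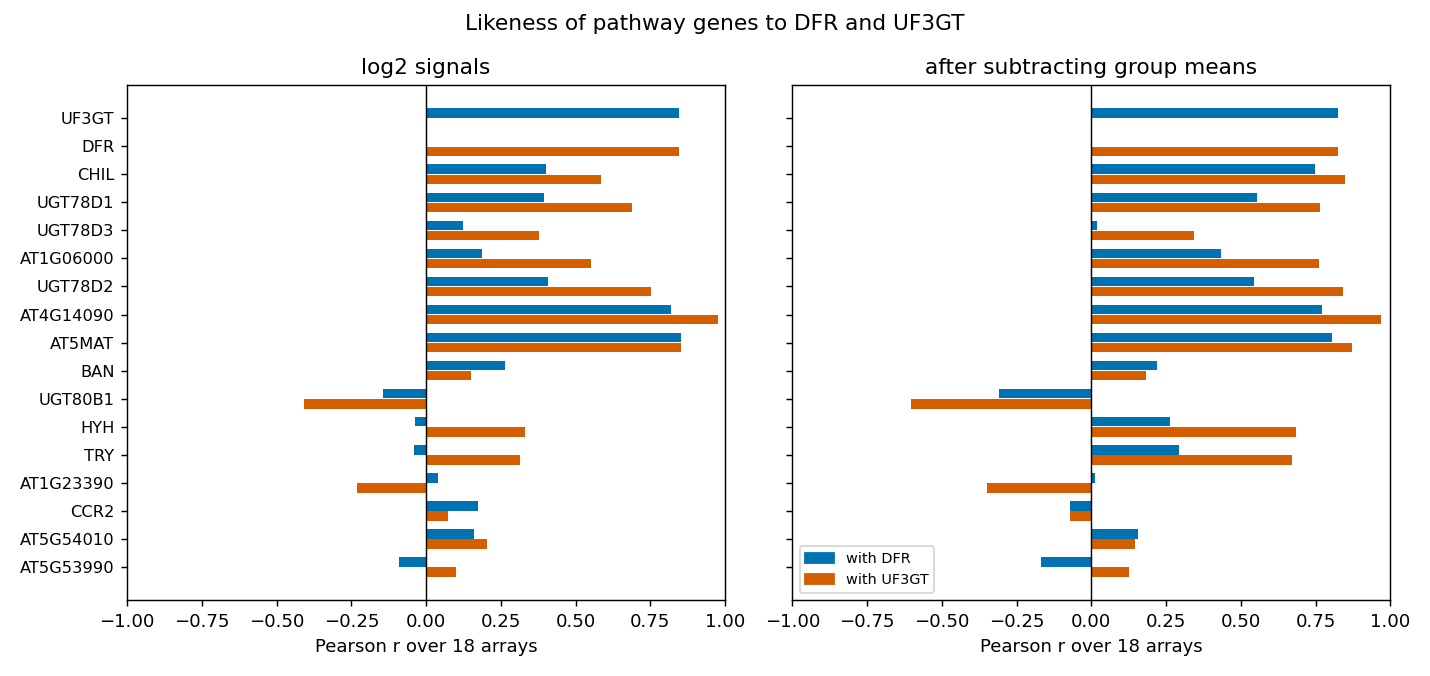
Pearson r of each measured pathway gene or sequence relative of the pair with DFR (blue) and UF3GT (orange) over the 18 arrays. Values are from the log2 signals (left) and after the mean of each group was subtracted (right). AT4G14090 and AT5MAT stand at 0.82 to 0.97 with both genes on the left, and CHIL rises from 0.58 to 0.85 with UF3GT on the right.

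Of the genes that act before DFR, or beside it, CHIL, UGT78D1 and AT1G06000 had higher r values with both genes once group means were subtracted, and UGT78D3 did not. CHIL, the chalcone isomerase-like protein that helps the early enzymes, was the 1 of 5 early flavonoid genes with a named probe set. It ranged from 7.01 to 10.24, with r = 0.40 with DFR and 0.58 with UF3GT. After subtracting group means, the r of CHIL was 0.75 and 0.85. CHIL differed from control by -0.87 ± 0.50 at 250 Hz (adjusted p = 0.423 in limma) and by 0.80 ± 0.50 at 3000 Hz (adjusted p = 0.353), and with 1 array left out these ranged from -1.36 to -0.39 and from 0.31 to 1.41. By its means 250 Hz was its lowest group, whereas it was the second highest for DFR and UF3GT.

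The flavonol branch competes with DFR for dihydroflavonols. Of 11 flavonol genes 3 were measured, and 0 of 3 passed in limma at any frequency, with 1 and 2 at an unadjusted p under 0.05 at 250 and 500 Hz, where 15.8% and 26.6% of all probe sets had one. AT1G06000, without a symbol in the annotation, had the widest range of the 3, from 6.85 to 10.10. It differed from control by -1.29 ± 0.50 at 250 Hz (adjusted p = 0.215) and by -1.50 ± 0.50 at 500 Hz (adjusted p = 0.0688). Without control replicate 2 these were -1.78 and -1.99, with adjusted p = 0.0352 and 0.0125, and without control replicate 1, its highest array, they were -0.58 and -0.79, with adjusted p = 0.570 and 0.301. The r of AT1G06000 was 0.19 with DFR and 0.55 with UF3GT, and the latter was 0.04 without 3000 Hz replicate 2 and control replicate 1.

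Of 14 transcriptional activators in the list, only HYH had a probe set named here, so the MYB, bHLH and WD40 partners that control DFR are not analysed here. HYH is a bZIP factor that acts with its homologue HY5 in light responses. Its signals were 9.05, 5.94 and 7.43 in the controls, 5.30, 5.53 and 5.29 at 250 Hz and 7.64, 7.10 and 6.01 at 500 Hz. At 1000 Hz they were 6.31, 6.13 and 5.51, at 2000 Hz 7.60, 7.58 and 7.34, and at 3000 Hz 7.10, 7.99 and 6.82. The 250 Hz arrays lay below all arrays of the other groups except 1000 Hz replicate 3, and the 2000 Hz arrays, low in DFR, lay above all of those of 1000 Hz. Over all probe sets, 26.9% did not overlap between 1000 and 2000 Hz. Between 250 Hz and control, 500, 2000 and 3000 Hz the shares were 13.4%, 26.4%, 24.9% and 33.7%.

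HYH differed among the 6 groups (limma's moderated F test, adjusted p = 0.0423) and among the 5 sound groups (adjusted p = 0.0486). It passed in 4 and 3 of the 18 fits that each left out 1 array, so most single arrays end the call, and the adjusted p values ranged from 0.00335 to 0.0985 and from 0.00652 to 0.115. Against control it differed by -2.10 ± 0.56 at 250 Hz (adjusted p = 0.102) and by -1.49 ± 0.56 at 1000 Hz (adjusted p = 0.223), and both turned on single controls. Without control replicate 2 they were -2.87 (adjusted p = 0.00120) and -2.26 (adjusted p = 0.00684), and without control replicate 1 they were -1.31 (adjusted p = 0.263) and -0.70 (adjusted p = 0.647). Its r was -0.04 with DFR and 0.33 with UF3GT, the latter -0.17 without 3000 Hz replicate 2 and control replicate 1. After subtracting group means, the r of HYH was 0.26 with DFR and 0.69 with UF3GT.

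Of 19 negative regulators, 2 were measured, and AT1G23390, a locus without a symbol in the annotation, was the 1 that passed. Its signals in the controls were 7.45, 10.66 and 8.46, while the sound arrays ran from 9.81 to 11.43, a range that holds control replicate 2. AT1G23390 rose by 2.07 ± 0.55 at 500 Hz (adjusted p = 0.0311 in limma), by 2.16 ± 0.55 at 2000 Hz (adjusted p = 0.0455) and by 1.97 ± 0.55 at 3000 Hz (adjusted p = 0.0431). At 250 and 1000 Hz the differences were 2.04 ± 0.55 (adjusted p = 0.102) and 1.43 ± 0.55 (adjusted p = 0.227). With 1 of the 6 arrays left out, these 3 calls held in 2, 2 and 1 of 6 fits. Every such fit without control replicate 1 or 3 ended them, with rises of 1.27 to 1.96, and without control replicate 2 the rises were 2.98, 3.06 and 2.88. With only the 6 arrays of the groups compared, the adjusted p values were 0.257, 0.384 and 0.266. The r of AT1G23390 was 0.04 with DFR and -0.23 with UF3GT. The other negative regulator was TRY, a small MYB protein that represses trichome formation, which is named here after its values were seen because it lay on the other side of control. Its signals in the controls were 7.57, 5.35 and 6.64, against 4.84 to 6.10 on the sound arrays, and again control replicate 2 lay inside the range of the sound arrays. TRY differed from control by -1.16, -1.24, -1.40, -0.62 and -1.26 (SE 0.38) at 250, 500, 1000, 2000 and 3000 Hz. Its adjusted p values in limma were 0.154, 0.0538, 0.132, 0.398 and 0.0596 in that order, so it did not pass. Without control replicate 2 these were -1.75, -1.83, -1.99, -1.20 and -1.85, and all 5 passed (adjusted p from 0.000445 to 0.0131). Without control replicate 1 they were -0.64, -0.72, -0.88, -0.09 and -0.74, and none passed (adjusted p from 0.160 to 0.927). DFR did not follow the same split of the controls, since its control replicate 2 lay between the other two.

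Over all 87 listed genes other than the pair and the tissue markers, here called pathway genes, 15 had a probe set of their own. The 87 include 8 sequence relatives of the pair, of which 3 were measured. They also include 4 genes chosen for strong light, sugar and phosphate, of which 0 were measured. At 500, 2000 and 3000 Hz 1 of 15 passed, each time AT1G23390 and each time higher, beside 8.91%, 2.89% and 6.60% of all probe sets in either direction and 4.14%, 1.62% and 2.84% higher. At 250 and 1000 Hz 0 of 15 passed in limma, beside 0.0440% and 0% of all probe sets. At an unadjusted p under 0.05 there were 5, 4, 4, 1 and 3 of 15 at 250, 500, 1000, 2000 and 3000 Hz, beside 15.8%, 26.6%, 15.5%, 19.7% and 23.7% of all probe sets. The F test called 2 of 15 among the 6 groups, beside 18.9% of all probe sets, and 1 of 15 among the 5 sound groups, beside 15.6%. HYH was called in both, and the other of the 2 was AT1G23390 (adjusted p = 0.0481), which passed in 2 of the 18 fits that each left out 1 array. Medians over the 15 genes lay between -0.05 and 0.16. Without control replicate 2 the counts against control were 4, 5, 3, 2 and 2 of 15 at 250, 500, 1000, 2000 and 3000 Hz, beside 9.56%, 17.9%, 9.57%, 11.3% and 12.2% of all probe sets in the same fit. All 5 comparisons share the 3 control arrays.

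**Figure D4:**
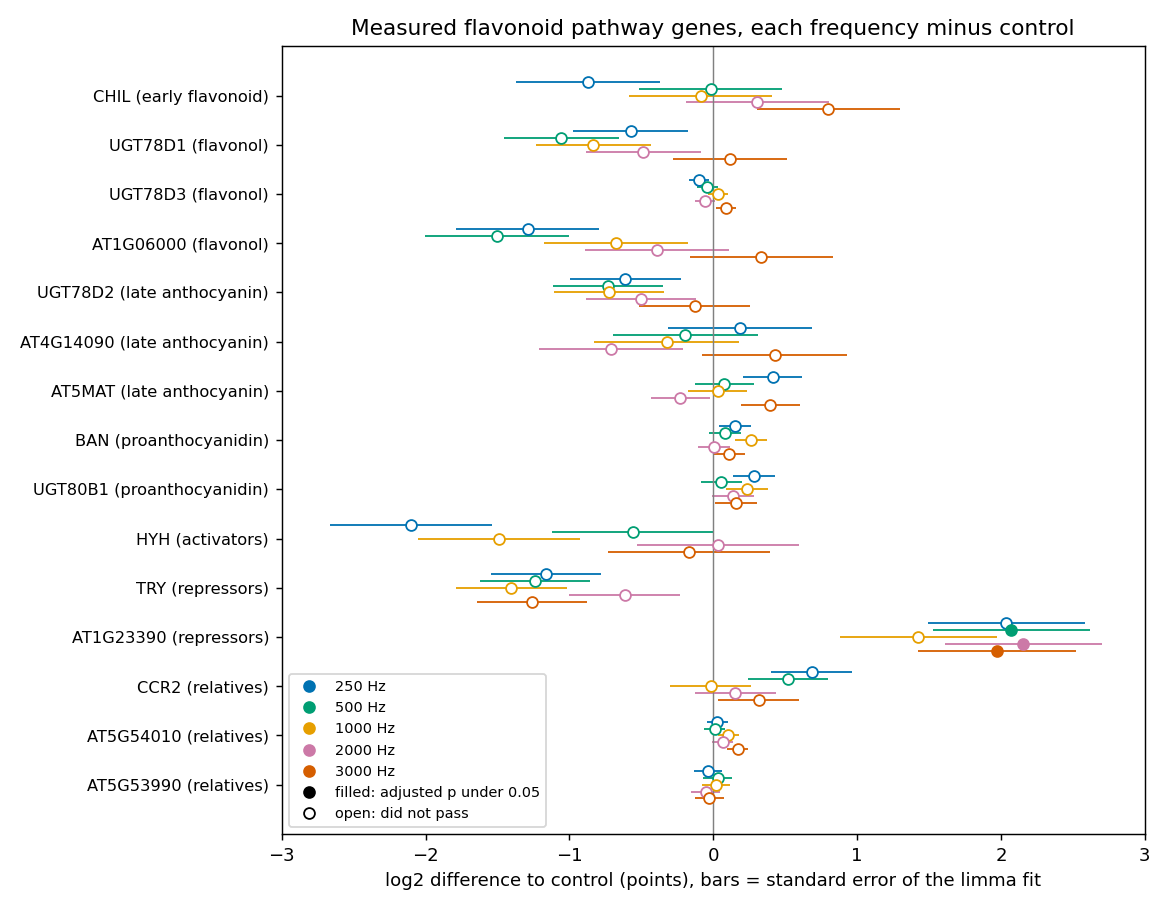
Log2 difference of each frequency to control for the 15 measured pathway genes, 3 of them sequence relatives of the pair (points), with the standard error of the limma fit (bars). Points are filled where the adjusted p over all probe sets was under 0.05. The 3 filled points are those of AT1G23390 at 500, 2000 and 3000 Hz, and the late anthocyanin genes lie between -0.73 and 0.43.

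The measured genes listed for the proanthocyanidin branch and seed coat, and the relatives of the pair apart from CCR2, ranged over less than 1 on the log2 scale. BAN, the anthocyanidin reductase of the seed coat that uses the product of the steps after DFR, ranged from 4.27 to 4.94. UGT80B1 had the wider range of the 2 measured genes of that list, 7.30 to 7.98, and neither passed at any frequency in limma, with 1 of 2 at an unadjusted p under 0.05 at 1000 Hz, where 15.5% of all probe sets had one. Among the relatives, CCR2, a cinnamoyl-CoA reductase of the family of DFR, ranged from 4.47 to 6.13. It differed from control by 0.68 ± 0.28 at 250 Hz (adjusted p = 0.244). AT5G54010, without a symbol in the annotation and listed here as UGT79B6, in the UGT family of UF3GT, ranged from 4.28 to 4.70. Beside UF3GT itself on chromosome 5, its annotated neighbour AT5G54050 ranged from 3.28 to 3.57. None of the 9 general phenylpropanoid genes and none of the 4 genes chosen for strong light, sugar and phosphate had a probe set named here.

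Of 28 marker genes for leaf, root, seed, flower and epidermis, 4 were measured, so the tissue label could be read from few genes. RCA, Rubisco activase of green leaves, stood between 14.09 and 14.32 on all arrays. The root hair genes EXPA7 and EXPA18 stayed between 4.61 and 5.46, whereas the root beta-glucosidase gene PYK10 ranged from 4.14 to 8.67, with its highest value on control replicate 1. Its r was 0.48 with DFR and 0.62 with UF3GT, and 0.30 and 0.50 after subtracting group means. The part of root tissue in the values of the pair was not tested. In whole rosettes, fewer pigmented cells and less RNA per cell cannot be told apart.

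The 2000 and 3000 Hz groups stood apart in the group means of 2 technical measures. The array medians lay between 6.51 and 6.63. The 3' minus 5' signal of the actin control probe sets, a sign of RNA quality, had an r of 0.06 with DFR and -0.03 with UF3GT. Its group means were 1.75 at 2000 Hz and 1.61 at 3000 Hz, against 1.94 to 2.06 in the other 4 groups. The mean of the poly-A spike controls was 6.34 at 2000 Hz and 6.18 at 3000 Hz, against 5.42 to 5.53 in the other 4 groups, with an r of -0.18 with DFR and -0.09 with UF3GT. The 2 groups with high spike signals were thus the lowest and the highest of both genes. Their differences in the pair go opposite ways, so an r over all arrays cannot show whether the pair moves with these measures. In their comparison with control, a difference in RNA quality or labelling and the sound treatment cannot be told apart.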

How the data were processed

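Log2 signals per probe set, deposited by the authors with 1 column per array, were used as given. Affymetrix Expression Console 1.1, RMA and MAS5 are named per the submitters' processing notes, and which of them made the column is not given in the sources used here. Of 22810 probe sets, 64 control probe sets were set aside. The probe annotation gave 1 gene for 13513 probe sets, several for 503 and none for 8730. Names were updated through RefSeq (TAIR10.1), without coordinates.

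The 2 genes were described by arrays, means and SD. The pathway genes were tested with limma 3.58.1 in R 4.3.3 (lmFit, eBayes with an intensity trend) on all 18 arrays, each frequency against control and by moderated F tests, two-sided, with Benjamini-Hochberg adjustment over 22746 probe sets. The number of arrays limits precision. The code was tested on simulated data. A value after ± is the standard error from limma, or the SD where so marked. Members, lists and the rule for names were chosen with earlier results of these data known. The rule names all measured early, late and activator genes, from other lists those that pass and the one with the widest range, and the 6 highest and 3 lowest probe sets by Pearson r. AT5G54010, AT5G54050, BAN, TRY, UGT78D1, UGT78D3, SPCH and SP1L4 were named after their values were seen. Alternatives were scaling, intensity trend, a replicate block, a filter keeping the brightest 60% of probe sets, subsets of groups and leaving out each array.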

Additional observations from a re-analysis of the deposited data

Results flagged for a closer look

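HYH differed among the 5 sound groups in limma's moderated F test (adjusted p = 0.0486), from 5.29 to 5.53 on the 250 Hz arrays to 7.34 to 7.60 on the 2000 Hz arrays. The same test called 15.6% of all probe sets. HYH passed in 3 of the 18 fits that each left out 1 array (adjusted p up to 0.115), and did not pass without the intensity trend (adjusted p = 0.0548). DFR was 1.82 higher in the mean at 3000 Hz than at 2000 Hz on the log2 scale, with all 3 arrays of each group on opposite sides of the control mean. Without regard to the control mean, 23.8% of all probe sets did not overlap between 2000 and 3000 Hz. The share of probe sets with these groups on opposite sides of the control mean was not counted. The difference of DFR was not tested, since DFR had been chosen on these values, and both groups are set against the same 3 control arrays.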

How the results depend on the processing

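All 80 recalculated differences of DFR and UF3GT to control stayed within 1 pooled SD of single arrays of the value given. Except for DFR at 2000 Hz, the differences were themselves smaller than that SD, so staying within it says little about stability. Of the 80, 12 changed sign, each with 1 array left out. With 1 array left out, DFR ranged from -0.09 to 1.42 at 250 Hz, from -0.37 to 0.94 at 500 Hz and from -0.83 to 0.48 at 1000 Hz. UF3GT ranged from -0.29 to 0.60 at 250 Hz, -0.53 to 0.35 at 500 Hz, -0.66 to 0.23 at 1000 Hz, -0.90 to -0.01 at 2000 Hz and 0.01 to 0.90 at 3000 Hz. The share of variation inside groups ranged from 48.1% to 77.2% for DFR and from 54.2% to 79.3% for UF3GT. Of the 6 genes most like each member by Pearson r, Spearman's rho gave 3 for DFR and 4 for UF3GT, and r after subtracting group means 2 and 2.

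The count of pathway genes, with 1 array left out, ranged from 0 to 4 at 250 Hz, 0 to 5 at 500 Hz, 0 to 3 at 1000 Hz, 0 to 2 at 2000 Hz, 0 to 2 at 3000 Hz, 0 to 5 among the 6 groups and 0 to 4 among the 5 sound groups. With only the 6 arrays compared it was 0 at 500, 2000 and 3000 Hz, and with the 12 arrays of control, 250, 500 and 1000 Hz it was 0 at 500 Hz. Without the intensity trend it was 1 among the 6 groups and 0 among the 5. The replicate block gave 2 at 500 Hz, 0 at 2000 and 3000 Hz and 3 among the 5 sound groups. A match of arrays by replicate number was looked for over all probe sets, not for the pathway genes alone. Deviations of same-numbered arrays correlated at -0.325 to 0.351, over 0.1 in 12 of 45 pairs. An array's best match in another group had its own number in 24 of 90 cases. For DFR and UF3GT, replicate 1 was the highest array in the control, 500 and 1000 Hz groups, but not in the 2000 and 3000 Hz groups. These values do not settle whether replicate numbers pair the arrays for these genes. The causes were not tested.

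Differences to control of single genes that turned sign did so with 1 array left out, and after median centring CHIL at 500 Hz (0.0333) and CCR2 at 1000 Hz (0.0167) did too. CHIL ranged from -0.51 to 0.46 at 500 Hz, -0.58 to 0.39 at 1000 Hz and -0.18 to 0.79 at 2000 Hz. CCR2 ranged from -0.28 to 0.15 at 1000 Hz. UGT78D2 ranged from -1.05 to -0.03 at 250 Hz, -1.17 to -0.15 at 500 Hz, -1.16 to -0.14 at 1000 Hz, -0.94 to 0.08 at 2000 Hz and -0.57 to 0.45 at 3000 Hz. AT4G14090 ranged from -0.15 to 0.85 at 250 Hz, -0.63 to 0.47 at 500 Hz and -0.66 to 0.34 at 1000 Hz. AT5MAT ranged from -0.0667 to 0.33 at 500 Hz, -0.11 to 0.29 at 1000 Hz and -0.37 to 0.0267 at 2000 Hz. HYH ranged from -1.32 to 0.23 at 500 Hz, -0.73 to 0.82 at 2000 Hz and -0.94 to 0.62 at 3000 Hz. AT1G06000 ranged from -1.17 to 0.035 at 1000 Hz, -0.88 to 0.32 at 2000 Hz and -0.16 to 1.05 at 3000 Hz.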

Other observations

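Once the mean of each group had been subtracted, the ranked probe sets most like DFR over the 18 arrays were AT5G43150 (r = 0.86), AT1G12570 (0.83), UF3GT (0.83), SPCH (0.80), AT4G12980 (0.80) and AT1G52000 (0.79). SPCH starts the stomatal lineage in young leaves, and its log2 signal ranged from 4.99 to 6.12. Without that subtraction, the r of SPCH with DFR was 0.40 and that of AT4G12980 was 0.18. For UF3GT the list held 3 pathway genes, AT4G14090 (0.97), CHIL (0.85) and UGT78D2 (0.84), together with SP1L4 (0.86), AT5G50100 (0.85) and AT5G27440 (0.84). SP1L4 belongs to the SPIRAL1 family of microtubule proteins, and its r with UF3GT was 0.30 without the subtraction. AT5MAT, outside the ranking by its range, had an r of 0.81 with DFR and 0.87 with UF3GT after the subtraction. These are descriptions of arrays that share their groups, with no p.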
